A study of Mus musculus with 16 samples.

Results

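Chromatin is read by ATAC-seq with a transposase that inserts sequencing adapters where DNA is not wrapped in nucleosomes, so a peak marks a promoter, enhancer or other regulatory element that is open in the cells sampled. Described here are 1158 autosomal regions of the mouse genome that were listed as peaks in pancreatic islets of every sample from 3 wild-derived inbred strains and in hardly any sample from 5 classical laboratory strains. The wild-derived strains were CAST/EiJ (CAST), PWK/PhJ (PWK) and WSB/EiJ (WSB), and the classical strains were 129S1/SvImJ (129), A/J (AJ), C57BL/6J (B6), NOD/ShiLtJ (NOD) and NZO/HlLtJ (NZO). Each strain gave islets of 1 female and 1 male, 16 samples in all, and the labels gave no treatment and no age. CAST, PWK and WSB descend from different subspecies of wild house mice, whereas the classical strains share most of their ancestry, and together the 8 strains founded the Diversity Outbred population. NOD mice are a model of autoimmune diabetes, and NZO mice become obese and diabetic.

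The regions were chosen by the peak calls themselves. Overlapping peaks of the 16 lists merged into 358621 regions on chromosomes 1 to 19, of which 62826 had a peak in all 6 wild-derived samples. Members were those of the 62826 with a peak in at most 1 of the 10 classical samples, which left 1158, or 1.84% of them. No classical sample had a peak in 470 members, and exactly 1 had a peak in 688. That a member is listed in wild-derived islets and not in classical islets is therefore the rule and not a finding. Just outside the rule stood 955 regions with a peak in all 6 wild-derived and in 2 classical samples, and 2895 regions with a peak in 5 wild-derived and at most 1 classical sample. The opposite pattern, a peak in all 10 classical samples and in at most 1 wild-derived sample, was held by 45 regions. A region without a listed peak is one in which no peak passed the authors' threshold, not one shown to be closed. In whole islets, fewer cells of a type and less open chromatin per cell cannot be told apart.

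The strongest members with no classical peak carry the pattern most plainly, so the sequence at the summits of the first 6 is shown. They were ranked by their lowest signal over the 6 wild-derived samples, after each sample was scaled to its shared peaks. Each is 200 bases of the plus strand of GRCm38 (mm10), read from the RefSeq copy of the assembly, which is the B6 genome, and centred on the mean summit of the 6 samples. All 6 summits lay inside each window. Capitals mark the letters of a searched transcription factor motif, and a window with no capitals holds none of the 20 motifs searched.
Region near Mrgprb12-ps at chr7:48099347-48099546: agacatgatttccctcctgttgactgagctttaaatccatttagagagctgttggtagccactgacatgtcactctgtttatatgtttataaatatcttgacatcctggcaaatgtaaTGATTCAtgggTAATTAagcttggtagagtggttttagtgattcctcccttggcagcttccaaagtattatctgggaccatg
Region in Gm44626 at chr8:8770473-8770672: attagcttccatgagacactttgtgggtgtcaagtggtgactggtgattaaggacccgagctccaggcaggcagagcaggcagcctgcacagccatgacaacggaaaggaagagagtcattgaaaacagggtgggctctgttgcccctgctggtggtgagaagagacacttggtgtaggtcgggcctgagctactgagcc
Region in Trim71 at chr9:114522608-114522807: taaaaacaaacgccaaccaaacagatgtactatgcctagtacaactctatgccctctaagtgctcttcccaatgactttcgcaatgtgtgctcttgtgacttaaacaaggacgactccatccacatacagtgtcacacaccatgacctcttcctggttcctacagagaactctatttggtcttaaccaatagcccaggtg
Region near Gm18903 and Rspo3 at chr10:29447728-29447927: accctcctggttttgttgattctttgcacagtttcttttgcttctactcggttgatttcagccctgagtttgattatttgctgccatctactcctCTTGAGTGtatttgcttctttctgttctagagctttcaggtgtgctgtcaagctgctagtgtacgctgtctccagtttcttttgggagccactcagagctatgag
Region in Nbas at chr12:13307013-13307212: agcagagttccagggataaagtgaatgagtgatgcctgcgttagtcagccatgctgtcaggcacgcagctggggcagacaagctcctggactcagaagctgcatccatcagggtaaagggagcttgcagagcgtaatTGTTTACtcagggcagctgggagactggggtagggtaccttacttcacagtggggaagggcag
Region near Gm9341 at chr7:135996836-135997035: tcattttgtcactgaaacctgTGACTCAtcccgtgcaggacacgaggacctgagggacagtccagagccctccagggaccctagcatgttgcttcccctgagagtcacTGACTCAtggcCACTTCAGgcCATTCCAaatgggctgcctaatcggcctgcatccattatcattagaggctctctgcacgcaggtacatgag

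The labelled tissue was checked against markers. A peak lay within 1 kb of a start site in all 16 samples for 11 of 12 beta cell markers, the exception being Glp1r, and for 3 of 5 alpha cell markers measured on the autosomes. The same held for 2 of 5 delta and PP cell markers, where Ppy and Pyy had a peak in no sample and Sst in 1, and for 1 of 11 acinar, 2 of 6 duct, 0 of 8 endothelial, 2 of 6 mesenchymal, 0 of 8 leukocyte and 1 of 3 Schwann cell markers. The summed scaled signal of each list, in units of a typical shared peak as defined further down, had overlapping ranges in wild-derived and classical samples. It was 21.1 to 25.7 and 19.5 to 30.5 for beta cells, 1.74 to 2.75 and 1.46 to 4.93 for duct, 2.35 to 2.94 and 1.395 to 2.75 for mesenchymal and 0.603 to 1.11 and 0.366 to 3.65 for leukocyte markers. The median over markers of their level was 0.319 in wild-derived and 0.133 in classical samples for duct, 0.369 and 0.208 for mesenchymal and 1.54 and 1.68 for beta cell markers, and the part of other cell types in the members' peaks was not tested. List lengths on the autosomes ran from 77887 (AJ male) to 167051 (WSB female). The lists carry no read totals, and the depth of the libraries was not used here. The PWK male stood apart, with a median summit signal of 10 and a median −log10 p of 1.79, against medians of 3.10 to 4.27 in the other 15 samples. It was the missing sample in 1509 of the 2895 regions with 5 wild-derived peaks, 52.1% of them, against 574 for the WSB male and 104 for the WSB female.

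Summit signals are whole numbers that carry no common scale, so each was divided by the median summit signal of its sample over the 40930 regions called in all 16 samples. On this scaled signal, 1 is a typical shared islet peak. Members were weak beside shared peaks. Within the wild-derived lists, from 31.1% (WSB male) to 46.5% (PWK male) of the peaks lay below the members' median. Their median scaled signal was 0.226 in the CAST female, 0.213 in the CAST male, 0.323 in the PWK female, 0.312 in the PWK male, 0.198 in the WSB female and 0.205 in the WSB male. In each of the 6 samples, from 96.8% to 99.1% of the members lay below 1. The ranges nevertheless spanned from 0.0283 in the WSB female to 11.3 in the CAST female. At a −log10 p of 3.53, the median over all autosomal peaks of the 16 lists, 41 members (3.54%) passed in all 6 samples and 218 (18.8%) in none, whereas 81.4% of the regions called in all 16 samples passed in all 6. The column reached below 1 in lists that had passed an FDR of 0.05, with 0.503 in the WSB female at the member near Gm49570, and the files do not say whether the caller's threshold was set on it.

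**Figure D1:**
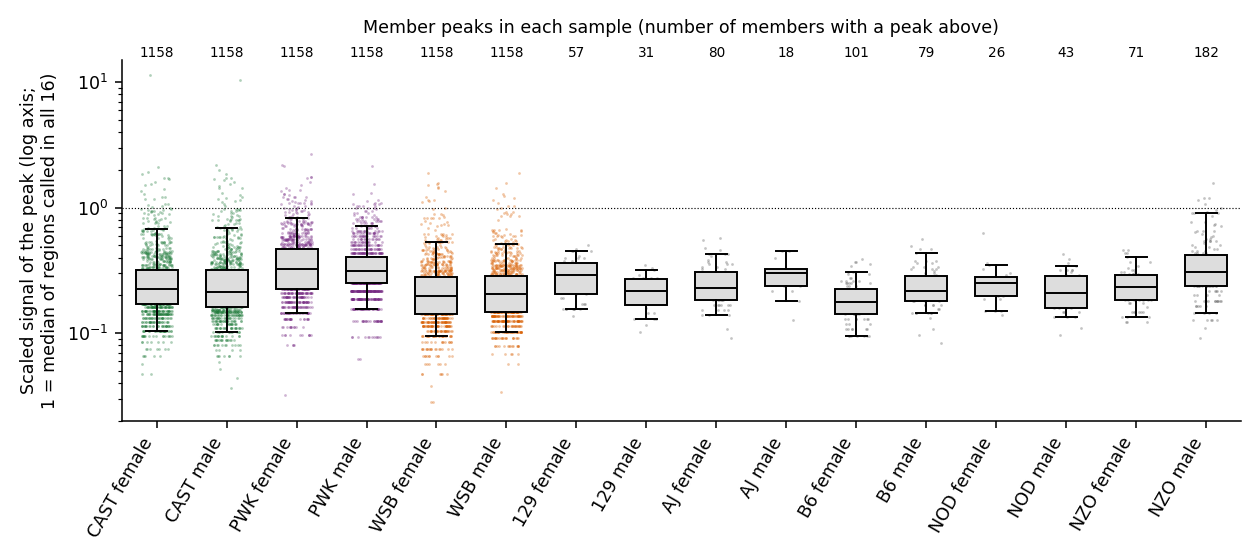
Scaled signal of the members' peaks in each sample (log axis), where 1 is the median of the regions called in all 16 samples; boxes give the quartiles and the median, whiskers the percentiles 5 and 95, points single members, and the number above each sample is the number of members with a peak there. All 6 wild-derived samples have 1158 peaks by the rule, the classical samples 18 to 182, and most points lie below 1 in every sample.

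The members just inside and just outside the rule had like signals. The median over regions of the median scaled signal was 0.239 with no classical peak, 0.241 with 1, 0.256 with 2, and 0.199 in the regions with 5 wild-derived peaks. In the 688 members with a single classical peak, that peak had a median scaled signal of 0.241, equal to the 0.241 of the wild-derived samples in the same regions. It was below the median of the 6 wild-derived peaks in 347 of the 688, below the lowest in 103 and above the highest in 96. The single classical peak came from the NZO male in 182 members, from the B6 female in 101, the AJ female in 80, the B6 male in 79, the NZO female in 71, the 129 female in 57, the NOD male in 43, the 129 male in 31, the NOD female in 26 and the AJ male in 18. The NZO male had the longest classical list, with 141307 autosomal peaks, and its part in these counts was not tested. The classical lists also began at higher signals. Percentile 5 of the scaled signal ran from 0.107 to 0.2 over the 10 classical lists, against 0.066 to 0.125 over the 6 wild-derived ones. From 4.95% to 24.2% of a classical list lay under 0.2, against 21.5% to 48.0% of a wild-derived list. Members had medians between 0.198 and 0.323, close to those levels, and the part of the list floors in the members was not tested.

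The strain lists of the authors, which rank how well the peaks of a female and a male repeat each other by an irreproducible discovery rate (IDR), use the same reads and are no independent evidence. Of the members, 1127 overlapped the CAST strain list, 1066 the PWK list and 1082 the WSB list, and 0 overlapped any classical strain list. The lists pair the peaks of both sexes and a member has a peak in at most 1 classical sample, so that 0 follows from the rule. At an IDR of at most 0.05 the numbers were 505 (43.6%) for CAST, 176 (15.2%) for PWK and 357 (30.8%) for WSB. Of the regions called in all 16 samples, 95.4%, 82.6% and 96.9% overlapped these lists. The lists then held 72941 peaks for CAST, 44897 for PWK and 71854 for WSB. All 3 wild-derived lists held 63 members at that IDR, and none of the 3 held 470.

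The 6 strongest members with no classical peak, whose windows are shown above, were open in all 3 wild-derived strains at about the level of a typical shared islet peak. The first lay 2.64 kb from the start site of Mrgprb12-ps, a pseudogene of the Mas-related receptors, and 69.2 kb from Mrgprb5. Its scaled signals were 0.934 and 0.956 in the CAST female and male, 2.18 and 0.844 in the PWK pair and 1.47 and 1.28 in the WSB pair. It held an AP-1 match (TGATTCA) beside a homeodomain core (TAATTA), and the PWK pair spanned the values of the other strains. The second lay in an intron of Gm44626, 79.8 kb from Arglu1, and gave 1.05 and 1.27 in CAST, 1 and 0.844 in PWK and 1.15 and 1.19 in WSB, with CAST and WSB overlapping and both PWK samples lowest. The third lay in an intron of Trim71, which encodes an RNA-binding ubiquitin ligase of stem cells. There the signals were 1.42 and 1.73 in CAST, 1.18 and 0.781 in PWK and 1.16 and 0.886 in WSB, with both CAST samples above the other 4.

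An intergenic region 21.7 kb from Gm18903 and 56.4 kb from Rspo3, the gene of a secreted activator of Wnt signalling, gave 0.783 and 0.875 in CAST, 1.35 and 1 in PWK and 0.783 and 0.67 in WSB. Its window was 91% repeat-masked in the reference. In Nbas, whose product acts in transport between Golgi and endoplasmic reticulum, a region overlapping an exon and holding a FOXA match (TGTTTAC) gave 0.623 and 0.794 in CAST, 1.74 and 0.969 in PWK and 1.43 and 1.15 in WSB. Both CAST samples were lowest there. The intergenic region 43.9 kb from Gm9341 held a pair of AP-1 matches, an NKX2 match and a TEAD match, and gave 1.17 and 0.86 in CAST, 1.71 and 0.75 in PWK and 0.83 and 0.557 in WSB, with the PWK pair spanning the CAST pair and CAST above WSB. None of these 6 regions passed the test among strains given further down (limma F test, adjusted p = 0.0838 to 0.441).

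The next 4 by the same ranking lay in Gm36745 19 kb from Pdcd6ip, 25.2 kb from Tm2d3, 11.6 kb from Mtnr1b and in an intron of St5, and their lowest scaled signals were 0.469, 0.468, 0.466 and 0.452. Mtnr1b encodes a melatonin receptor, and variants at the human gene are known for their association with fasting glucose and type 2 diabetes. The region near it gave 0.679 and 0.75 in CAST, 0.774 and 0.688 in PWK and 0.519 and 0.466 in WSB, and no classical sample listed a peak there. The region near Tm2d3 was the one of the 10 that passed the test among strains (limma F test, adjusted p = 0.00552), with 1.73 and 1.43 in CAST, 1 and 0.852 in WSB and 0.468 and 0.594 in PWK. At the other end of the ranking, an intergenic region 57.7 kb from Gm49570 and a region beside Gm5152 had a lowest scaled signal of 0.0283, in both cases in the WSB female. Further copies of the region beside Gm5152, at 90% identity or more, numbered 14 in the reference.

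**Figure D2:**
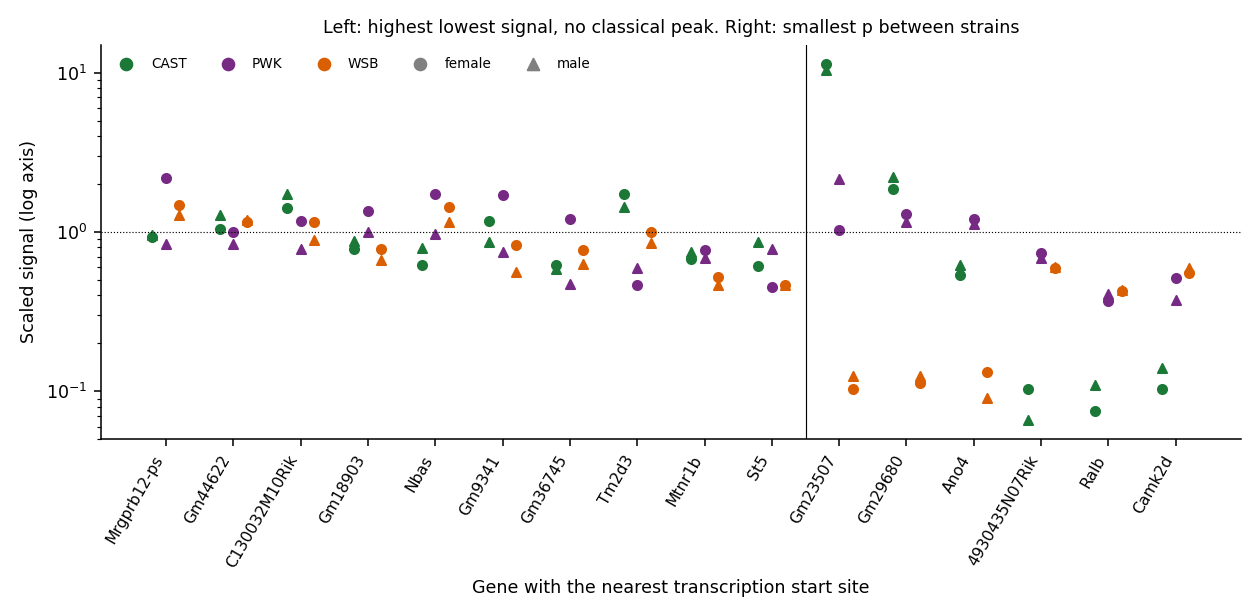
Scaled signal (log axis) of the 6 wild-derived samples at 16 members, each named by the gene with the nearest start site; colours give the strain, circles females and triangles males. Left of the line are the 10 members with no classical peak and the highest lowest signal, where the strains mostly overlap around 1; right of it are the members with the smallest p between strains, where 1 strain falls to about 0.1.

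Members lay away from promoters more often than shared peaks did. Of the 1158, 276 (23.8%) lay within 3 kb of a transcription start site, 54 (4.66%) in other exonic sequence, 510 (44.0%) in introns and 318 (27.5%) between genes. Promoters made up 41.0% of the regions called in all 16 samples and 25.9% of the 20738 regions called in all 6 wild-derived and 2 to 9 classical samples, called intermediate regions from here on. The median member was 475 bases wide, against 1144 for shared and 634 for intermediate regions, and its window had a GC content of 46.0%, against 50.0% and 46.5%. The median distance to the nearest region called in all 16 samples was 12086 bases. These place shares set the members nearer to the intermediate than to the shared regions, and they carry no test because width and signal, on which the place of a region depends, are part of the peak calls.

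The 6 members within 3 kb of a protein-coding start site with the highest lowest signal were at Tomm20l, AK157302, Aff3, Ncam2, Lrrc26 and Nav2. Tomm20l, a relative of a receptor for protein import into mitochondria, had its start site inside a member of 1040 bases whose window had a GC content of 71.5%. Windows of the first pair are shown since they are the promoter members that stood highest, and neither held a searched motif.
Tomm20l at chr12:71111443-71111642: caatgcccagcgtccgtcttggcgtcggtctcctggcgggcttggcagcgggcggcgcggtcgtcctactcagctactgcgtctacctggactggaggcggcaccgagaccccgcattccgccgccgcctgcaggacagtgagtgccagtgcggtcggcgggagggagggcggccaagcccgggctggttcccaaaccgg
AK157302 at chr13:21495169-21495368: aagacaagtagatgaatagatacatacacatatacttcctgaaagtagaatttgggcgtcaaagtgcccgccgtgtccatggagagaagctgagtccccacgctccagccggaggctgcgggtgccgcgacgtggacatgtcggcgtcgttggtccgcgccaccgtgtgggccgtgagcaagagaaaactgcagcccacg

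Scaled signals at Tomm20l were 2.10 and 2.01 in CAST, 0.629 and 0.438 in PWK and 1.35 and 1.25 in WSB, and the strains did not overlap. Their difference passed the test (limma F test, adjusted p = 0.00168), and the log2 difference CAST minus PWK was 1.93 (SE 0.257). The NZO male also had a peak there, at 0.855. At AK157302 the values were close, 0.604 and 0.647 in CAST, 0.435 and 0.594 in PWK and 0.538 and 0.659 in WSB, but this member was 92 bases wide and had another copy in the reference at 98.9% identity. Aff3, a subunit of complexes for transcription elongation, had a lowest signal of 0.425, Ncam2, a neural cell adhesion molecule, 0.419, Lrrc26, a subunit of potassium channels, 0.406, and Nav2, which acts in the growth of neurites, 0.344.

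Genes of islet function had members nearby in shares that differed between lists. By nearest protein-coding start site within 100 kb, 817 of 20780 autosomal protein-coding genes had a member, 3.93%. Of 23 beta cell genes (4.35%), Slc30a8 alone did, which encodes the zinc transporter of insulin granules. Of 6 alpha cell genes (33.3%), the transcription factor gene Irx2 and Pcsk2, whose product cleaves prohormones, had a member each. Of 15 genes of insulin exocytosis, 3 had a member (20%): Cacna1c and Cacna1d, which encode the L-type calcium channels that open when a beta cell depolarizes, and Snap25, a SNARE protein of vesicle fusion, with 7 members in all. Of 35 genes at type 2 diabetes loci, 9 (25.7%) had 11 members between them, namely Tcf7l2, Cdkal1, Slc30a8, Mtnr1b, Glis3, Zfand6, Dgkb, Fto and Ptprd. Among 13 interferon response genes (7.69%) Rsad2 alone had a member, and 0 members were nearest to any of the delta and PP, acinar, duct, endothelial, mesenchymal, leukocyte or Schwann cell genes. Several of these genes are long, the lists were drawn up with earlier results of these data known, and no test of the lists was made.

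The Slc30a8 member was a 200-base region 2.55 kb upstream of the start site, at chr15:52292800-52292999. Its scaled signals were 0.179 and 0.184 in CAST, 0.145 and 0.219 in PWK and 0.179 and 0.193 in WSB, so the strains overlapped at a level far below the promoter of the gene itself, which had a median of 0.863 in the wild-derived and 1.12 in the classical samples. In Cacna1c, a member of 264 bases gave 0.472 and 0.324 in CAST, 0.339 and 0.281 in PWK and 0.462 and 0.511 in WSB and held an AP-1, an NKX2 and a NEUROD E-box match. A second Cacna1c member of 374 bases, with an AP-1 match, gave 0.575 and 0.441 in CAST, 0.5 and 0.312 in PWK and 0.274 and 0.273 in WSB, and in the NZO male 0.182. All 3 of these lay well below 1 in every sample, and none passed the test among strains. The member in Cacna1d was highest in PWK, at 0.419 and 0.406, against 0.311 and 0.169 in CAST and 0.217 and 0.159 in WSB (limma F test, adjusted p = 0.0457). The members in Cdkal1 and Ptprd, intronic as well, had lowest signals of 0.189 and 0.176.

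The most frequent motif of the members was that of AP-1. AP-1 is a family of dimers of FOS and JUN proteins that bind TGANTCA, are induced within minutes by growth signals, stress or calcium entry, and open enhancers together with factors of the cell type. The letters TGANTCA, which read the same on both strands, stood in 361 of the 1158 member windows, 31.2%. They stood in 12.7% of the regions called in all 16 samples, in 23.8% of the intermediate regions, in 15.4% of all 358621 merged regions and in 1 of the 45 regions with the opposite pattern. Windows outside the members were centred on the median summit over all samples with a peak. Centred on the mean of the wild-derived summits, as in members, 12.5% of shared and 22.9% of intermediate regions held the letters. The share did not rise steadily towards the members. It was 26.8% with no classical peak, 34.2% with 1, 33.3% with 2 and 32.7% with 3, and then fell by steps to 18.6% with 9 and 12.7% with 10. By place, it was 31.2% at promoters, 31.5% in exons, 32.9% in introns and 28.3% between genes among members, while in the shared regions it was 8.09%, 14.7%, 17.4% and 14.8%.

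Matches lay near the window centres about as often as in intermediate regions. In 173 of the 361 members with a match (47.9%) the nearest lay within 25 bases of the mean wild-derived summit. The shares in intermediate and shared regions were 48.5% and 40.2%, measured there from the median summit over all samples with a peak. The 6 wild-derived summits fell within 100 bases of each other in 501 members (43.3%), against 52.2% of the intermediate and 70.1% of the shared regions. Where they did, the share with AP-1 letters was 40.3% in members, 28.0% in intermediate and 13.5% in shared regions, with every window set on the mean of the wild-derived summits. Where they did not, it was 24.2% in members. A pair of the windows above show such matches, near Mrgprb12-ps and near Gm9341. These shares are descriptions: regions of like signal share their base composition and width, and a match is not a bound site.

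**Figure D3:**
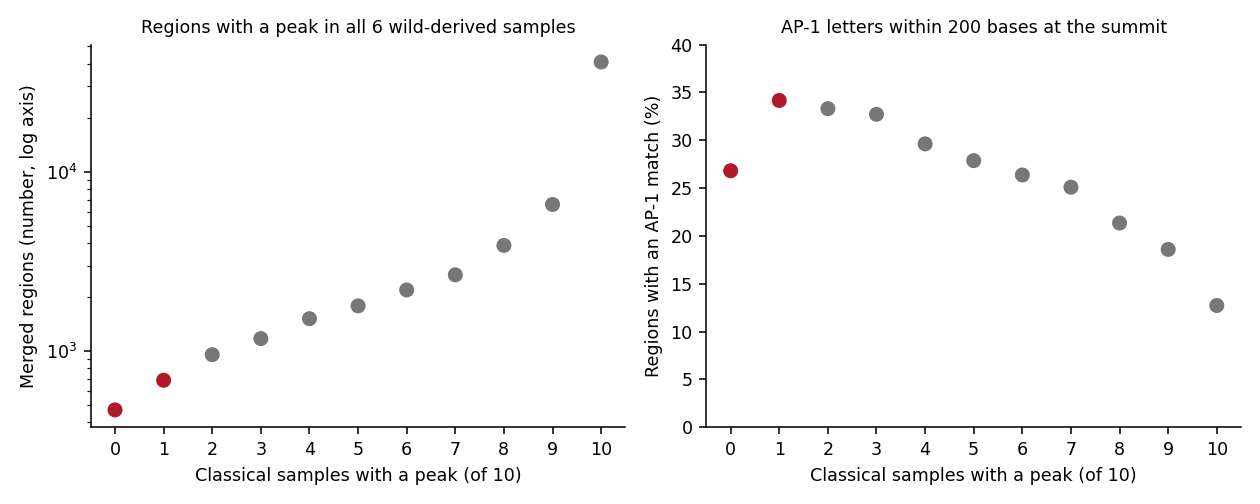
Left, the number of merged regions with a peak in all 6 wild-derived samples (log axis) by the number of classical samples with a peak, and right, the share of their 200-base windows with the AP-1 letters. Members, in red, number 470 and 688, and their AP-1 shares are 26.8% and 34.2%, against 12.7% in regions called in all 16 samples. Windows of members are centred on the mean wild-derived summit, and the others on the median summit over all samples with a peak.

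Motifs of housekeeping promoters and of insulators were less frequent in members than in shared regions, and nearer to their share in all merged regions. The SP/KLF box (GGGCGGG) stood in 1.90% of members and 13.0% of shared regions, the ETS box (CCGGAAG) in 0.864% and 4.75%, and the CTCF motif in 4.23% and 10.3%. In intermediate and in all merged regions the shares were 4.90% and 2.89% for SP/KLF, 2.03% and 1.29% for ETS, and 7.71% and 3.97% for CTCF. Away from promoters the SP/KLF box stood in 1.88% of members with no and 1.18% of those with 1 classical peak, against 2.49% of shared regions. Motifs of islet factors differed less. The NEUROD E-box (CCATCTG) stood in 9.93% of members and 7.87% of shared regions, the homeodomain core (TAATTA) in 7.69% and 5.79%, the half-site of MAF (TGCTGAC) in 6.48% and 5.22%, the FOXA motif (TGTTTAC) in 5.01% and 6.30%, and the RFX box (GTTGCCA) in 2.85% and 5.12%. Both strands were searched for each, and windows outside the members were again centred on the median summit.

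Although all 3 strains had to carry a peak, they did not carry it at the same height. The rule used no difference between CAST, PWK and WSB, so these were tested with limma on log2(summit signal + 1), centred for each sample on the shared regions, over all 62826 regions with a peak in all 6 samples. With 1 female and 1 male per strain, the spread is that between these samples, which may also be technical. The F test among the strains called 473 members (40.8%) at an adjusted p under 0.05, and 27.8% of all 62826 regions. PWK was highest in 346 of the 473, CAST in 86 and WSB in 41. The order ran from PWK down to WSB in 200 and from PWK down to CAST in 146, while PWK was lowest in 7 led by CAST and 5 led by WSB. Over all 17464 regions called, PWK was highest in 45.3% and WSB in 30.7% of them, against 73.2% and 8.67% in the members.

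Between pairs of strains, 306 members were higher in PWK than in WSB (26.4%, against 8.45% of all regions) and 14 were lower (1.21%, against 5.01%). From CAST to PWK, 263 were lower in CAST (22.7%, against 13.4% of all regions) and 32 higher (2.76%, against 6.01%). Between CAST and WSB, 154 were higher in CAST (13.3%, against 6.65%) and 70 lower (6.04%, against 10%). The median log2 difference over members was 0.59 for PWK minus WSB, -0.50 for CAST minus PWK and 0.08 for CAST minus WSB, and over all regions 0.12, -0.11 and 0.03. In 434 members (37.5%) both PWK samples lay above all 4 others, in 94 (8.12%) both CAST samples and in 57 (4.92%) both WSB samples. The same was not counted over all regions, so these shares do not set the members apart.

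The standing of PWK depended on how the samples were scaled. With quantile normalization 175 members were higher and 21 lower in PWK than in WSB, and 99 lower and 45 higher in CAST than in PWK. Higher and lower together, PWK against WSB called 16.9% of members and 11.9% of all regions. CAST against PWK called 12.4% and 14.5%. On the deposited mean signal the counts were 108 and 14, and 52 and 33, with shares of 10.5% against 7.95%, and 7.34% against 9.89%. Under both settings CAST against PWK called a smaller share of members than of all regions. With no centring both directions turned, to 23 higher and 136 lower in PWK than in WSB and 423 higher and 4 lower in CAST than in PWK. The shares called were 13.7% against 31.0% of all regions, and 36.9% against 60.9%. That setting moved the median log2 difference of all regions to -0.98 for PWK minus WSB and 1.30 for CAST minus PWK. The members' medians were -0.51 and 0.91. Centring shifts all regions of a sample alike, so the gap between members and all regions could not change. Without the PWK male, whose peaks were least significant, the median log2 difference CAST minus PWK was -0.51 over members and -0.08 over all regions. The weakest peaks of the PWK lists also stood higher on the scaled signal: percentile 5 of the list was 0.113 in the PWK female and 0.125 in the PWK male, against 0.0849 and 0.0809 in the CAST and 0.066 and 0.0909 in the WSB pair. Since a member must be listed in all 6 samples, such a floor bears on the members' values, and its part in the strain difference was not tested.

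**Figure D4:**
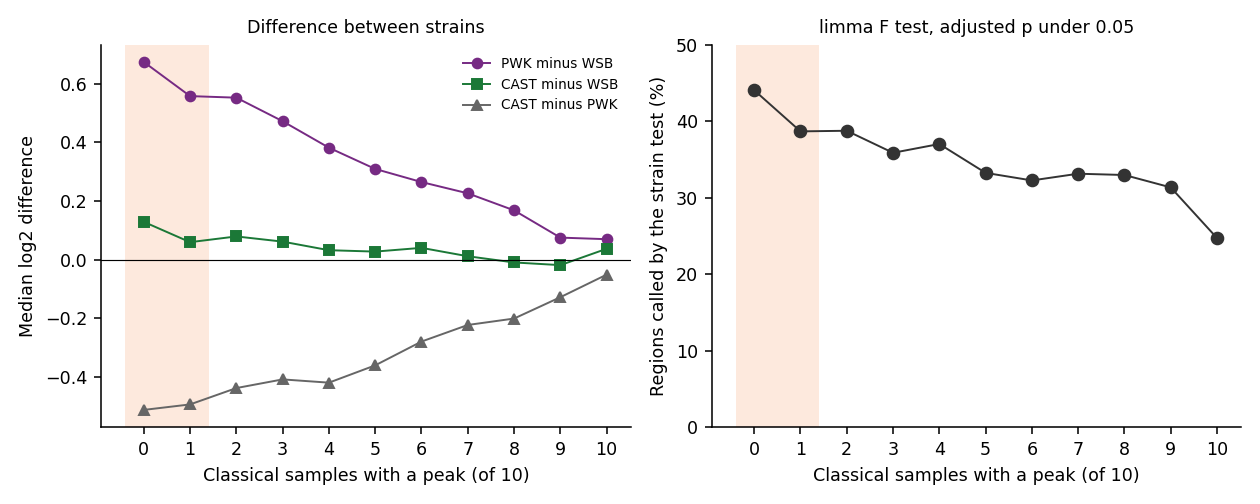
Left, the median log2 difference between strain pairs, and right, the share of regions called by the limma F test among strains, over the 62826 regions with a peak in all 6 wild-derived samples, by the number of classical samples with a peak; members are shaded. PWK minus WSB runs from 0.67 with no classical peak to 0.07 with 10, and the share called from 44.0% to 24.7%.

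These differences ran through the whole range of regions rather than setting the members apart. From 0 to 10 classical samples with a peak, the median of PWK minus WSB went through 0.67, 0.56, 0.55, 0.47, 0.38, 0.31, 0.26, 0.23, 0.17, 0.08 and 0.07. The share of regions highest in PWK went from 71.1% with no classical peak and 66.3% with 1 to 37.4% with 10. With 2 classical peaks, just outside the rule, the share called was 38.7%, as with 1.

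Single members differed by far more. The strain means of 90 members (7.77%) spanned more than 2 on the log2 scale and those of 11 (0.95%) more than 3. The F test called all of these, and such spans were not counted over all regions. In an intergenic region of 6785 bases at chr11:88890200-88896984, 25.6 kb from Akap1, which anchors protein kinase A at mitochondria, CAST stood at 11.3 and 10.3, PWK at 1.03 and 2.16 and WSB at 0.104 and 0.125. It held the highest CAST values of all members (limma F test, adjusted p = 3.88e-05), and the log2 difference CAST minus WSB was 6.45 (SE 0.334). Its summits lay up to 945 bases apart and the sequence at their mean was 90% repeat-masked, so no window is shown. At an intronic region of Gm29680, CAST gave 1.87 and 2.21, PWK 1.29 and 1.16 and WSB 0.113 and 0.125 (limma F test, adjusted p = 5.67e-05). In both regions WSB lay low in its lists. Percentiles 5 and 10 of these were 0.066 and 0.0849 in the female and 0.0909 and 0.125 in the male.

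Highest in PWK was an intronic region of Ano4, a gene of the anoctamin family of membrane proteins, with 1.21 and 1.125 in PWK, 0.538 and 0.618 in CAST and 0.132 and 0.0909 in WSB (limma F test, adjusted p = 0.000143). The 3 strains did not overlap. An intronic region of Fam155a, whose product is a subunit of the sodium leak channel, gave 0.742 and 0.688 in PWK and 0.594 and 0.602 in WSB but 0.104 and 0.0662 in CAST (adjusted p = 0.000183), and PWK and WSB were not told apart (log2 difference 0.26, adjusted p = 0.571). Highest in WSB was a region overlapping an exon of Ralb, a small GTPase of the exocyst, with 0.425 and 0.432 in WSB, 0.371 and 0.406 in PWK and 0.0755 and 0.11 in CAST (adjusted p = 0.000639). A region in an intron of Camk2d, a calcium-dependent kinase, gave 0.557 and 0.591 in WSB, 0.516 and 0.375 in PWK and 0.104 and 0.14 in CAST (adjusted p = 0.000818). In these last 2 regions CAST was low, and the difference between PWK and WSB did not pass (adjusted p = 0.816 and 0.423). The windows of the first PWK and the first WSB region are shown for their motif letters, an AP-1 match and a homeodomain core. All 6 summits lay in the first and 4 of 6 in the second.
Region in Ano4 at chr10:89218006-89218205: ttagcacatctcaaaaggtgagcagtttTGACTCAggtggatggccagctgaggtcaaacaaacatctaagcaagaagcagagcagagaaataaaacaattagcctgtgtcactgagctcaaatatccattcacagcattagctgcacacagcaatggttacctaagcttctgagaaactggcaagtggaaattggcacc
Region in Ralb at chr1:119472139-119472338: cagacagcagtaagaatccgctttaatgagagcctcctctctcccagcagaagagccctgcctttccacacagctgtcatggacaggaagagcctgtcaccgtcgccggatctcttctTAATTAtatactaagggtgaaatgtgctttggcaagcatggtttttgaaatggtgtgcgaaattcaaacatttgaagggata

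No member was called between females and males. limma with strain in the model called 0 members higher and 0 lower in females, as it did over all regions (0% called). At an unadjusted p under 0.05 it gave 98 members and 2320 of the 62826 regions. The median log2 difference of female minus male was 0.02 over members. Across members, the centred log2 signals of the sexes correlated at r = 0.83 in CAST, 0.74 in WSB and 0.46 in PWK, and between samples of different strains at 0.11 to 0.42. These correlations are over 1158 regions that share libraries, and they describe the spread within and between strains.

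Members were spread over all autosomes but not evenly. They made up 1.84% of the regions with a peak in all 6 wild-derived samples, with 2.46% on chromosome 7 (95 members), 2.36% on chromosome 19, 2.32% on chromosome 2 (117) and 2.31% on chromosome 14. Chromosome 11 had 6 members, 0.347%, chromosome 18 had 22, 0.991%, and chromosome 15 had 27, 1.08%. The share of intermediate regions was not low on chromosome 11, at 33.3% against 28.8% to 37.7% elsewhere. Peaks of all kinds were sparse there, with a median of 29.3 peaks per Mb over the 16 lists against 38.0 to 53.6 on the other autosomes, and percentile 5 of their scaled signal was the highest of any, 0.157. The part of these values in the low count was not tested.

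**Figure D5:**
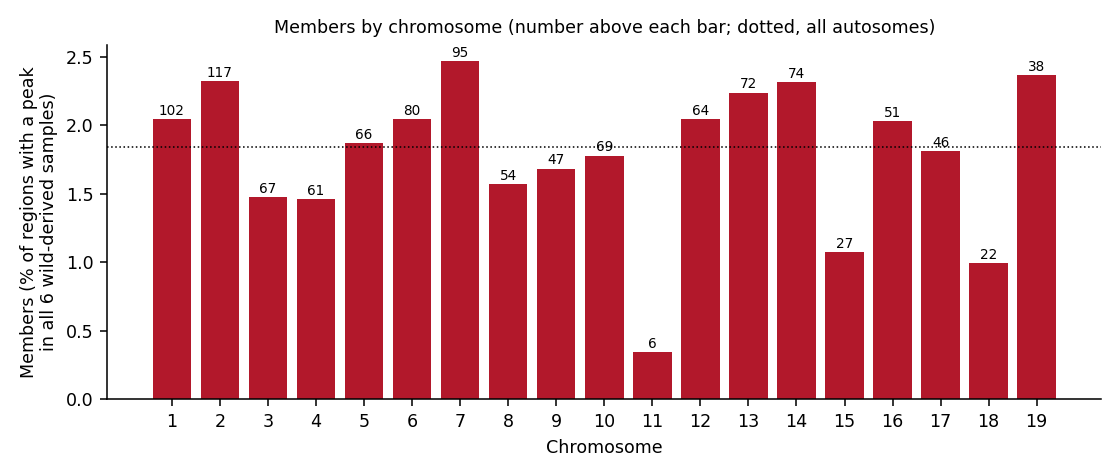
Members as a share of the regions with a peak in all 6 wild-derived samples, by chromosome, with the number of members above each bar and the share over all autosomes as a dotted line. Chromosome 11 stands lowest, at 0.347% with 6 members, and chromosome 7 highest, at 2.46% with 95.

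Within chromosomes, most members had no other member within 10 kb, and some of the windows with most members lay in tandem gene families. Of 776 windows of 1 Mb with a member, 525 held 1 and 11 held 5 or more, and 82 members (7.08%) had another within 10 kb. On chromosome 7, the window from 14000001 to 15000000 held 11 members among its 21 regions with a peak in all 6 wild-derived samples, and the next window held 8 of 35. Both lie in the Obox cluster, oocyte-specific homeobox genes and many of their pseudogenes. Obox genes or pseudogenes were nearest to 19 members, 1.64%, against 0.125% of intermediate and 0.00489% of shared regions. Another 3 windows held 7 members each, from 38000001 and from 39000001 on chromosome 7 and from 62000001 on chromosome 13, the last beside Zfp808. Defensin genes, which encode antimicrobial peptides, were nearest to 9 members, 0.777%, against 0.0530% and 0.0562%, and 6 members shared the window from 19000001 on chromosome 8 beside Defb3, Defb7 and Defb8. Further families were searched by symbol. Zinc finger (Zfp) genes were nearest to 1.04% of members, against 1.70% of intermediate and 1.81% of shared regions, olfactory receptor genes to 0.604%, against 0.333% and 0.281%, vomeronasal receptor genes to 0.345%, against 0.111% and 0.164%, and secretoglobin genes to 0 members. The spacing of other regions was not compared.

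Tandem families hold near-identical copies, between which reads cannot be placed with certainty. A further copy in the reference, with at least 90% identity over at least 0.8 of the region, was found for 93 members (8.03%) and on the same chromosome for 86 of them. The share was 1.95% of shared, 4.00% of intermediate and 15.6% of the 45 regions with the opposite pattern. More than 50% of the window was repeat-masked in 6.74% of members, 2.20% of shared and 4.47% of intermediate regions. Strains can also differ from the reference in the number of copies, which the peak lists do not show, and the part of copies in the members' peaks was not tested.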

How the data were processed

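Islets of 8 strains were profiled by ATAC-seq in 1 female and 1 male each. Per the labels and the study's methods, the authors trimmed reads with cutadapt 2.0, aligned them to mm10 with Bowtie2 2.3.4.1, processed them with SAMtools and Picard 2.9.2, and called peaks per sample with MOSAiCS at an FDR of 0.05. Whether read ends were shifted for the transposase is not given in the sources used here. All strains were aligned to the B6 reference. The deposited lists give for each peak a summit signal (whole-number coverage, not scaled to depth), a mean signal with no stated base, a −log10 p-value as the authors' caller gave it, and a summit. The deposited strain lists give a −log10 IDR as the authors computed it, and reach beyond an IDR of 0.05.

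Peaks sharing at least 1 base were merged (pandas 2.3.3), and the highest summit of a sample in a region was its signal. Signals were tested with limma 3.58.1 in R 4.3.3, because summit signals of separate peaks are not read counts over a common set of regions, which a count test needs. A pseudocount of 1 was added before log2, which understates the change of low regions, and p-values were adjusted by Benjamini-Hochberg over all 62826 regions. On simulated data for the strain test, all 100 of 100 regions changed by 2 on the log2 scale were recovered among 62826. The simulation drew normal noise with the fitted spread of each region and held no list floor and no whole-number signals. It therefore does not give the power of the test in these lists. Places used GENCODE M21, sequences RefSeq GRCm38.p6, overlaps bedtools 2.31.1, and copies minimap2 2.31. Windows were centred on the mean wild-derived summit in members, and on the median summit over all samples with a peak in other regions unless stated. Strains were grouped by the labels, and the class of a strain came from the study. Chromosomes X and Y did not enter the comparisons.

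The members, gene lists and motifs were chosen with earlier results of these data known. Named are the 10 members with no classical peak and the highest lowest signal, the 6 members at protein-coding promoters that rank highest likewise, up to 3 per gene list by nearest start site within 100 kb, the 2 with the smallest F-test p for each strain they were highest in, members called for sex (there were 0), the windows of 1 Mb with most members, and the 2 members with the lowest signal. Windows of the first 6, 2 and 1 per strain are shown, except that in CAST, whose summits lay apart. Alternatives were other peak thresholds, merging and coverage rules, scalings, filters and models, and each sample left out.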

Additional observations from a re-analysis of the deposited data

Results flagged for a closer look

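In the 10 classical samples, the number of members with a peak was highest in the NZO male, at 182, and its gap of 81 to the next sample was large for the range of 164 among the 10. Of the regions that had 5 wild-derived peaks and at most 1 classical peak, 1509 were missing in the PWK male alone, a gap of 935 to the next of the 6 wild-derived samples. The median −log10 p of the PWK male list, 1.79, was the lowest of the 6 by a gap of 1.79. About 5% of groups would be singled out in this way by chance.

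The median log2 difference of female minus male over the members was 0.0529 in CAST, 0.0671 in PWK and -0.0529 in WSB, each from 1 pair of samples, and this difference in sign was not tested. On chromosome X, which the rule left out, 12 of 2126 regions with a peak in all 6 wild-derived samples had a peak in at most 1 classical sample, 0.564%.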

How the results depend on the processing

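The number of members depended on the rule more than on any sample. It was 470 with no classical peak allowed, 728 with peaks of the stricter significance, 278 with equal numbers of peaks in every list and 341 where peaks had to cover at least 0.5 of a region. Of these last 3 sets, 41, 96 and 28 regions overlapped a member, so other thresholds picked mostly different regions. Leaving out 1 sample gave 1205 to 2660 members, with 2660 without the PWK male. The promoter share kept within 20.6% to 25.8%, the intergenic share within 24.5% to 29.1% and the AP-1 share, for which settings were added after the data were seen, within 26.7% to 40.6%.

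Members called among the 3 strains numbered 296 with quantile normalization (25.6%, against 22.04% of all regions). On the mean signal they numbered 186 (16.1%, close to the 15.4% of all regions). They numbered 222 of 459 without the 10% of regions with the lowest signal (48.4%, against 29.3%), and 15 of the 41 with stricter peaks (36.6%, against 28.2%). In the same order, CAST against PWK gave 144 (12.4%, against 14.5%), 85 (7.34%, against 9.89%), 122 (26.6%, against 20.1%) and 10 (24.4%, against 19.2%). PWK against WSB gave 196 (16.9%, against 11.9%), 122 (10.5%, against 7.95%), 146 (31.8%, against 14.3%) and 12 (29.3%, against 13.5%). CAST against WSB gave 107 on the mean signal (9.24%, against 7.74%), 145 (31.6%, against 18.9%) and 7 (17.1%, against 17.5%). With no centring the calls were 414 among strains (35.8%, against 59.0%) and 95 for CAST against WSB (8.20%, against 4.57%). There the directions turned for CAST against PWK (427, or 36.9% against 60.9%) and PWK against WSB (159, or 13.7% against 31.0%). Leaving out 1 sample gave 217 to 669 calls among strains, 70 to 405 for CAST against PWK, 67 to 369 for CAST against WSB, 112 to 462 for PWK against WSB, and 0 to 1 for sex, where without either CAST sample 1 member was called. The lone sample of a strain is then assumed to vary like the others. Among strains and for each pair of strains, the calls over all regions rose or fell with those of the members. These swings are therefore not particular to the members. Without either PWK sample the median log2 difference CAST minus WSB stayed at 0.08 over members and 0.03 over all regions. That of PWK minus WSB over members kept within 0.58 to 0.65. The calls among strains were fewest without a CAST sample (217 and 229) or a WSB sample (271 and 315). Those for CAST against PWK were 74 and 70 without a CAST sample. For CAST against WSB they were 67 and 71 without a CAST, 89 and 107 without a WSB and 369 without either PWK sample, and for PWK against WSB 112 and 156 without a WSB and 207 without either CAST sample. The cause was not tested. With sex in the model, which blocks the samples by female and male, 468 members were called among strains (40.4%, against 26.4%). CAST against PWK gave 289 (25.0%, against 18.4%), CAST against WSB 217 (18.7%, against 15.8%) and PWK against WSB 319 (27.5%, against 12.7%). The 6 regions named for strain differences passed in each setting that kept them.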
